A study of Mus musculus with 31 samples.

Results

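Angiopoietins and endothelial adhesion molecules were followed through 31 expression arrays of whole mouse lung as a list of 9 genes: Angpt1, Angpt2, Tek, Tie1, Vwf, Sele, Selp, Icam1 and Vcam1. Each gene was read from the probe set that the platform annotation pairs with that symbol alone, taking the brightest where there are several. By this rule 8 of the 9 genes had a value, from 1 probe set each, among 19938 genes in all, and all 8 were among the 14705 genes bright enough to be tested. Selp, which encodes P-selectin, is unnamed in the values used here and has no level below.

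The mice were male, of the inbred strains AKR and C57 BL/6 (C57 from here on), and labelled as 6 weeks of age. They breathed room air or cigarette smoke and then received an instillation into the trachea, either of the bacterial endotoxin lipopolysaccharide (LPS) dissolved in saline or of plain saline. These treatments gave 8 groups: air saline, smoke saline, air LPS and smoke LPS in each strain, with 3 arrays each except AKR smoke LPS, which has 2. Another 3 groups had room air and no instillation: C57 titled 6 weeks (3 arrays), AKR titled 6 weeks (3 arrays) and AKR titled 3 weeks (2 arrays). For the instilled mice the sample titles state 3 weeks of exposure and the series description 6, which leaves its length uncertain. Smoke without an instillation was not measured on any of these arrays. The titles call the arrays of a group biological replicates.

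Endothelial cells keep a quiet state through the receptor kinase TEK (also called TIE2), which angiopoietin-1, made by mural and stromal cells, switches on, and which its relative TIE1 modulates. Activated endothelium releases angiopoietin-2, which competes with angiopoietin-1, together with von Willebrand factor from the granules called Weibel-Palade bodies, and P-selectin moves from the same granules to the cell surface. E-selectin (Sele), ICAM1 and VCAM1 are made anew under NF-kB in response to cytokines or endotoxin. The selectins slow leukocytes on the vessel wall, while ICAM1 and VCAM1 bind their integrins and hold them there. ICAM1 is also made by alveolar epithelium and by leukocytes.

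Sele and Icam1 moved together after LPS, so the 250 bases before each start site are printed here from RefSeq (build GRCm38.p6), which gave a promoter for 5 of the 9 genes (Tek, Tie1, Sele, Selp and Icam1). Capitals mark every match, on either strand, to GGNNNTTCC, a loose form of the NF-kB site chosen after the sequences were seen. The Sele window is chr1:164047984-164048233 and the Icam1 window chr9:21015690-21015939, both on the plus strand.
Sele: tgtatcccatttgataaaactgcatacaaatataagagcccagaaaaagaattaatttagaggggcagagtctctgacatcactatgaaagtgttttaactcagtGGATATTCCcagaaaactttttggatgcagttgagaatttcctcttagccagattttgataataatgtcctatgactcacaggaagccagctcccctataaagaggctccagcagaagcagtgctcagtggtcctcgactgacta
Icam1: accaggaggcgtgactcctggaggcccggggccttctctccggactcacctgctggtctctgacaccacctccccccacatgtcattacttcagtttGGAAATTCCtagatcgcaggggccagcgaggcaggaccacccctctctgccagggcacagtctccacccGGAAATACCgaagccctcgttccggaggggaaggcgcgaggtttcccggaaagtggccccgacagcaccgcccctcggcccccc
The Sele window held 1 match, beginning 145 bases before the start site, and a TATAAA beginning 49 bases before it. In the Icam1 window a stretch beginning 153 bases before the start matched on both strands, and another beginning 84 bases before it matched on the minus strand. Selp held 1 match, 14 bases before its start, on the minus strand, and Tek and Tie1 held none in this window. GGNNNTTCC occurred in 15.7% of 32851 promoter windows of this length, and TATAAA, on either strand, in 12.4%. The stricter kappa-B consensus, found in 3.9% of windows, occurred in none of the 5. A match describes letters, not a site shown to be used.

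Levels are log2 intensities, on which a difference of 1 is a doubling, and differences between groups are tested with limma at an adjusted p under 0.05. Marker genes of lung read high on every array, with Sftpc, the surfactant protein C of alveolar type 2 cells, between 13 and 13.8. On a pair of C57 arrays the labels and the values disagreed. On C57 smoke saline 3, as labelled, the level was 12.5 for the acute-phase gene Saa3, like the LPS arrays. On C57 smoke LPS 3, as labelled, it was 6.06, like the other C57 saline arrays. Both were kept under their labels. Results whose call, direction or count changes when they are left out are given both ways, since they widen the error of every comparison in the shared fit. In AKR Saa3 read 6.22, 6.38 and 8.95 on air saline arrays 1, 2 and 3 and 8.09, 8.65 and 8.26 with smoke saline. The AKR LPS arrays read from 12.2 to 12.7. The value distributions formed 2 sets: 18 arrays (all C57 arrays and AKR room air titled 6 weeks) had medians of 6.96 to 7.1, and the 13 other AKR arrays had medians of 6.8 to 6.9. Levels of instilled mice are therefore not tested between strains. In whole lung, fewer cells of a type and less RNA per cell cannot be told apart.

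**Figure D1:**
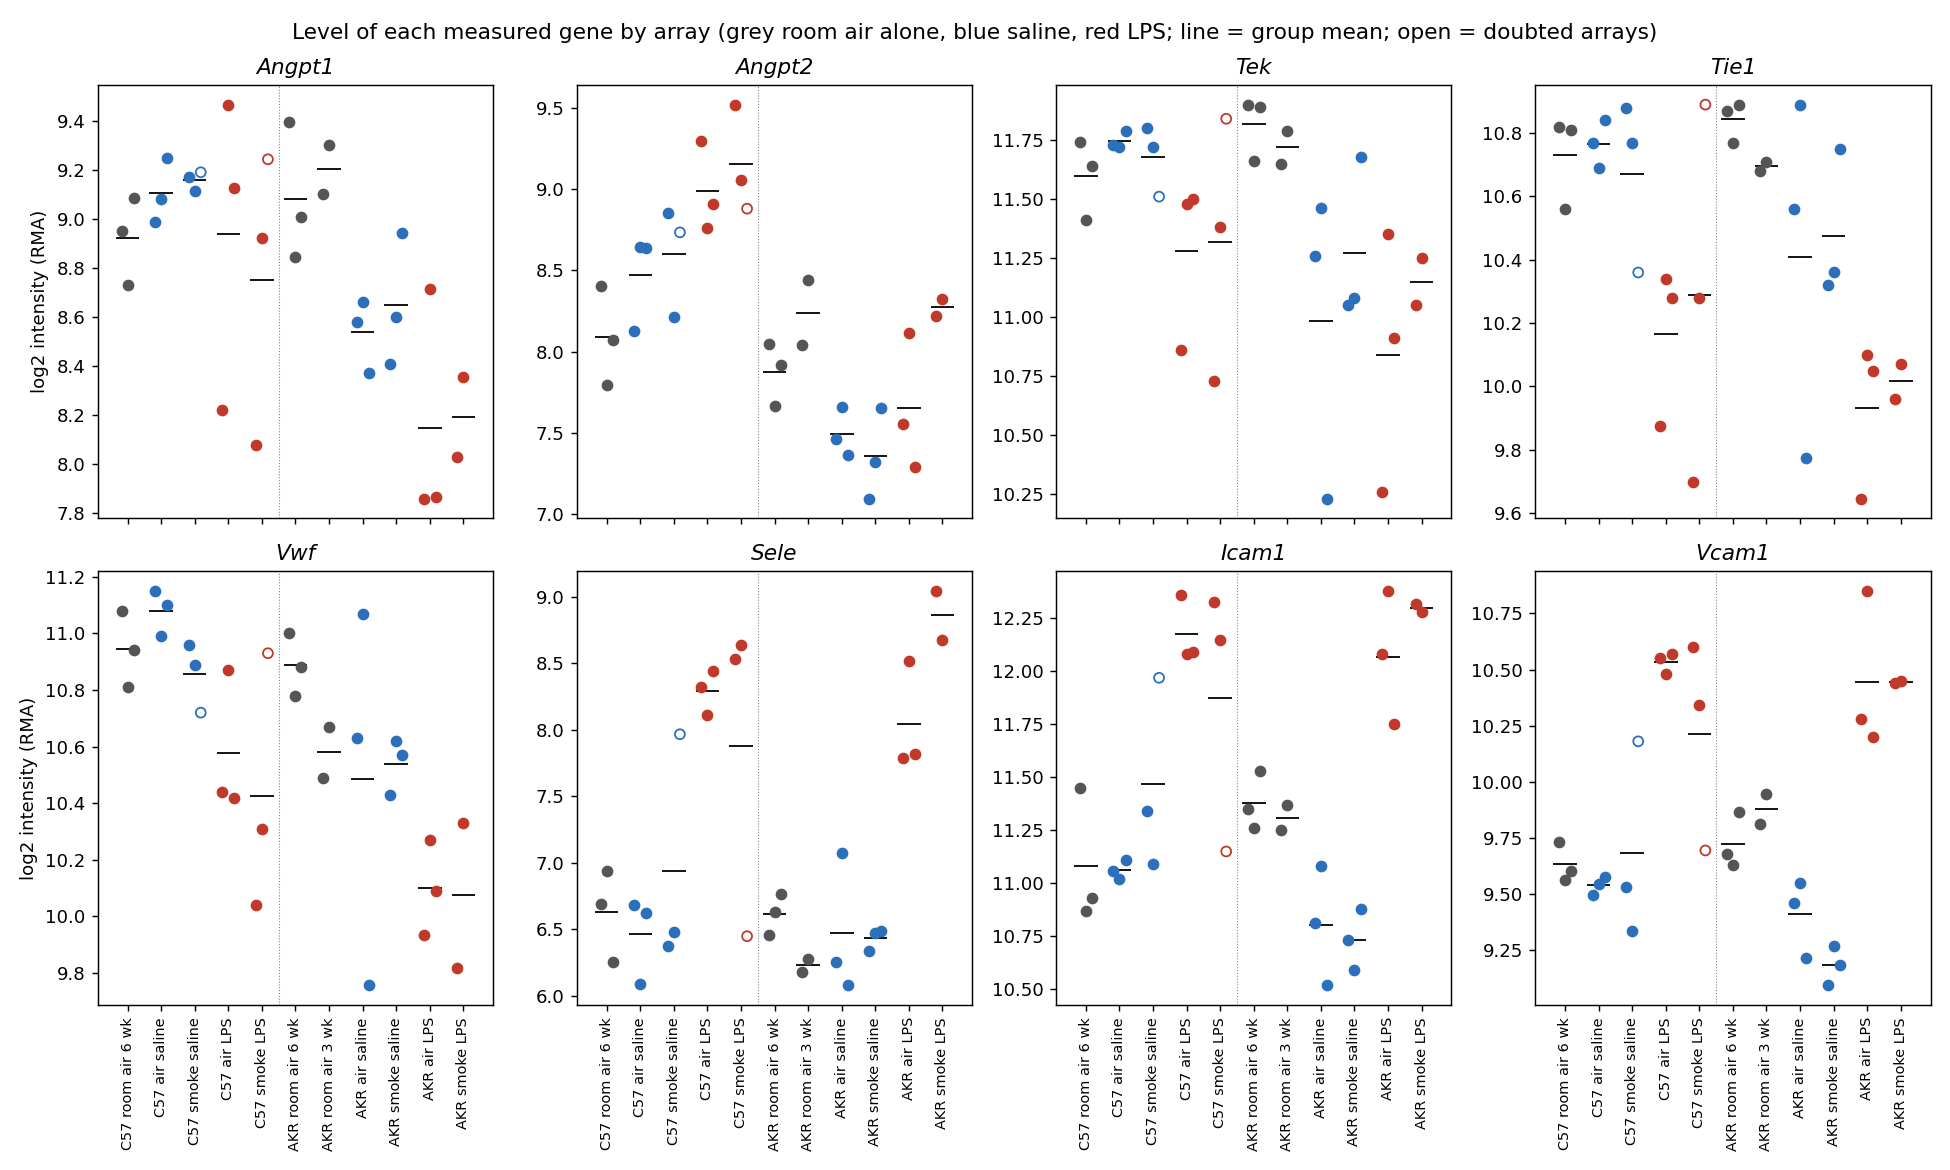
Log2 intensity (RMA, y axis) of the 8 measured genes on each of 31 arrays by group (x axis); each point is 1 array, lines are group means, C57 groups lie left of the dotted line and AKR groups right, and open circles are the pair of C57 arrays that stand apart from their labels. For Sele, Icam1 and Vcam1 all 5 AKR LPS arrays lie above all 11 other AKR arrays.

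E-selectin, ICAM1 and VCAM1 rose with LPS after room air in both strains, and none of Angpt1, Angpt2, Tek and Tie1 passed the test there. Of the 8 measured genes 3 rose and none fell in C57, where 11.5% of all genes tested rose and 4.3% fell. In AKR the same 3 genes rose and none fell, against 9.45% and 7.41% of all genes. Without the pair of doubted arrays the shares of all genes were 15.2% and 7.67% in C57 and 11.8% and 10.8% in AKR.

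Sele, the selectin that tethers rolling neutrophils, read 6.68, 6.09 and 6.63 on the C57 air saline arrays and 8.32, 8.11 and 8.44 with LPS. Every LPS array lay above every saline array, by 1.82 ± 0.42 log2 units (SE, n = 3 and 3; 3.54-fold; limma adjusted p = 0.0076). In AKR it read 6.25, 7.07 and 6.08 with saline and 7.79, 8.52 and 7.82 with LPS. The groups did not overlap, and the difference was 1.57 ± 0.42 (n = 3 and 3; 2.97-fold; limma adjusted p = 0.012). That call was lost without AKR air saline 3 (difference 1.38, limma adjusted p = 0.056) or without AKR air LPS 2 (difference 1.33, limma adjusted p = 0.075).

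Icam1, the ligand of the beta-2 integrins on neutrophils, read 11.06, 11.02 and 11.11 with saline and 12.36, 12.08 and 12.09 with LPS in C57. The rise was 1.11 ± 0.24 (2.16-fold; limma adjusted p = 0.0057; n = 3 and 3), and the 3 LPS arrays lay well above the 3 saline arrays. In AKR the saline arrays read 10.81, 11.08 and 10.52 and the LPS arrays 12.08, 12.38 and 11.75, a rise of 1.27 ± 0.24 (2.41-fold; limma adjusted p = 0.00088; n = 3 and 3). These groups did not overlap either.

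Vcam1, which binds the integrin of monocytes and lymphocytes, read 9.49, 9.54 and 9.57 with saline and 10.55, 10.48 and 10.57 with LPS in C57. Its rise of 1.00 ± 0.19 was 2-fold (limma adjusted p = 0.004; n = 3 and 3). In AKR it read 9.46, 9.55 and 9.22 with saline and 10.28, 10.85 and 10.20 with LPS, with no overlap. The AKR rise was 1.03 ± 0.19 (2.04-fold; limma adjusted p = 0.00078; n = 3 and 3). The Icam1 and Vcam1 rises passed in both strains under each of the 13 alternatives run, left-out arrays included.

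The ligands behaved less uniformly. Angpt2, the ligand that activated endothelium releases, read 8.13, 8.64 and 8.63 with saline and 9.30, 8.76 and 8.91 with LPS in C57. The LPS arrays lay above the saline arrays, but the difference of 0.52 ± 0.22 did not pass (limma adjusted p = 0.11; n = 3 and 3). In AKR the levels were 7.46, 7.66 and 7.36 with saline and 7.55, 8.11 and 7.29 with LPS, overlapping, with a difference of 0.16 ± 0.22 (limma adjusted p = 0.69; n = 3 and 3).

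Angpt1, the ligand that activates TEK, read 8.99, 9.08 and 9.25 with saline and 8.22, 9.46 and 9.12 with LPS in C57. A single array, C57 air LPS 1, lay below the rest, and the difference was -0.17 ± 0.27 (limma adjusted p = 0.70; n = 3 and 3); without it the sign turned (0.19). In AKR the saline arrays read 8.58, 8.66 and 8.37 and the LPS arrays 7.86, 8.71 and 7.87, a difference of -0.39 ± 0.27 (limma adjusted p = 0.36; n = 3 and 3). AKR air LPS 1 and 3 were low and AKR air LPS 2 was not.

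The receptors and von Willebrand factor were lower with LPS on most arrays without passing the test. Tie1, the orphan partner of TEK, read 10.77, 10.69 and 10.84 with saline and 9.88, 10.34 and 10.28 with LPS in C57. Its groups did not overlap, and the difference of -0.60 ± 0.24 missed the threshold (limma adjusted p = 0.088; n = 3 and 3). Without the doubted pair the same difference passed (limma adjusted p = 0.035). In AKR Tie1 read 10.56, 10.89 and 9.77 with saline and 9.65, 10.10 and 10.05 with LPS. AKR air saline 3 was as low as the LPS arrays, and the difference was -0.48 ± 0.24 (limma adjusted p = 0.18; n = 3 and 3). Without that array it was -0.79 and passed (limma adjusted p = 0.026).

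Tek read 11.73, 11.72 and 11.79 with saline and 10.86, 11.48 and 11.50 with LPS in C57, again without overlap, a difference of -0.47 ± 0.29 (limma adjusted p = 0.26; n = 3 and 3). In AKR it read 11.26, 11.46 and 10.23 with saline and 10.26, 11.35 and 10.91 with LPS. Those groups overlapped, with a difference of -0.14 ± 0.29 (limma adjusted p = 0.79; n = 3 and 3).

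Vwf, the platelet-binding cargo of Weibel-Palade bodies, read 11.15, 10.99 and 11.10 with saline and 10.44, 10.87 and 10.42 with LPS in C57. The difference was -0.50 ± 0.23 (limma adjusted p = 0.13; n = 3 and 3), with every LPS array below every saline array. In AKR the levels were 10.63, 11.07 and 9.76 with saline and 9.94, 10.27 and 10.09 with LPS. There the difference was -0.39 ± 0.23 (limma adjusted p = 0.27; n = 3 and 3). Without AKR air saline 3, the lowest array, Vwf differed by -0.75 and passed (limma adjusted p = 0.016).

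**Figure D2:**
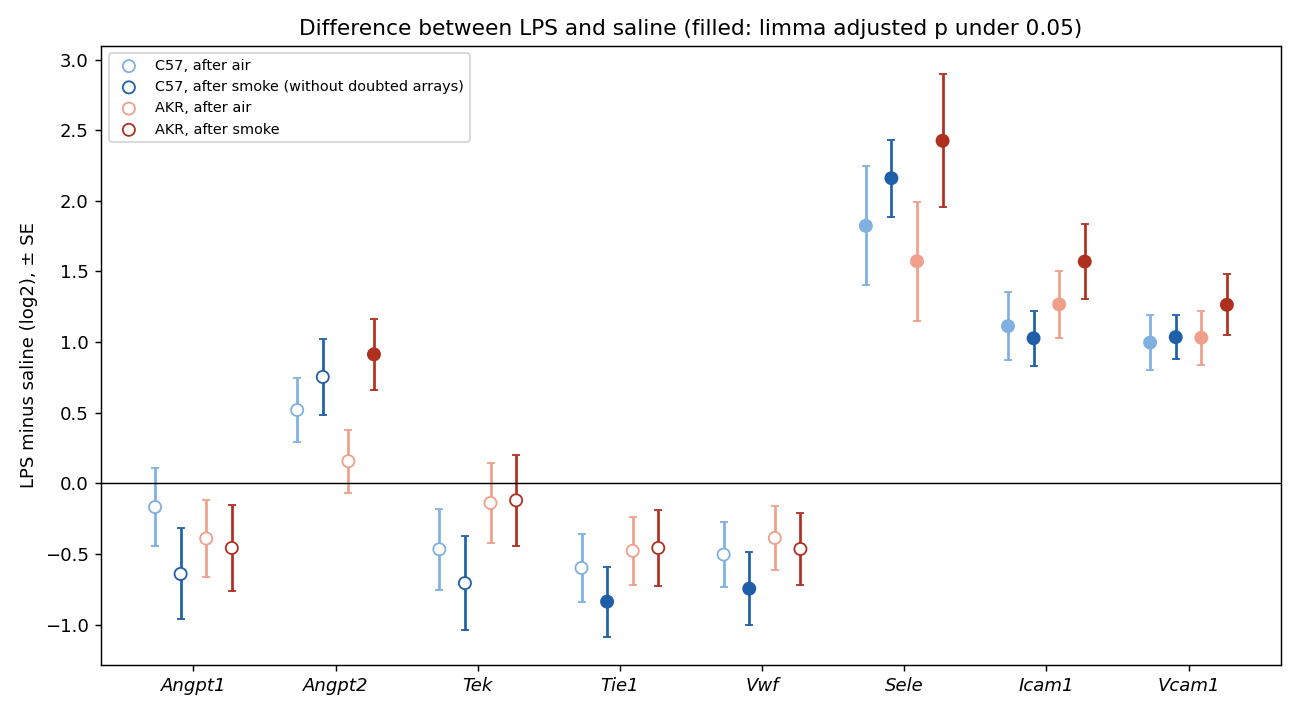
Difference between LPS and saline (log2, y axis) for each of 8 genes (x axis) in 4 comparisons, with standard errors from the shared limma fit; filled points passed at an adjusted p under 0.05, and the C57 comparison after smoke is drawn without the doubted pair. Sele, Icam1 and Vcam1 are filled in all 4, while Tie1 and Vwf are filled in C57 after smoke and Angpt2 in AKR after smoke; Tie1 in C57 after air is open here and passed without the doubted pair.

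After smoke the doubted pair sits in both C57 groups. Kept under its labels, it left no gene of 14705 past the threshold in limma (0%; 1300 genes at an unadjusted p under 0.05, among them 3 of the 8). Sele read 6.37, 6.48 and 7.97 with saline and 8.54, 8.64 and 6.45 with LPS, where the last value of each is from the doubted array. Icam1 read 11.34, 11.09 and 11.97 with saline and 12.33, 12.15 and 11.15 with LPS. Vcam1 read 9.53, 9.34 and 10.18 with saline and 10.60, 10.34 and 9.69 with LPS. In all 3 genes the doubted arrays read like the other treatment. The differences with the pair were 0.93 ± 0.42 for Sele, 0.41 ± 0.24 for Icam1 and 0.53 ± 0.19 for Vcam1.

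Without the pair, 5 of the 8 genes passed in C57 after smoke (2 arrays against 2), where 10.9% of all genes rose and 9.79% fell. Sele rose by 2.16 ± 0.27 (limma adjusted p = 5.1e-06), Icam1 by 1.03 (limma adjusted p = 6e-04) and Vcam1 by 1.03 (limma adjusted p = 4.5e-05). Tie1 fell by 0.84 (limma adjusted p = 0.019) and Vwf fell by 0.75 (limma adjusted p = 0.042). Without C57 smoke LPS 3 alone, Sele, Icam1 and Vcam1 passed, with Sele at 1.65 (limma adjusted p = 0.0039).

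In AKR after smoke 4 of the 8 genes rose and none fell, while 16.9% of all genes rose and 14.6% fell (18.6% and 16.4% without the doubted pair). Sele read 6.34, 6.48 and 6.49 with saline and 9.04 and 8.68 with LPS. That was a rise of 2.42 ± 0.47 (5.37-fold; limma adjusted p = 0.00062; n = 2 and 3). Icam1 rose by 1.57 ± 0.27 (limma adjusted p = 0.00019) and Vcam1 by 1.26 ± 0.21 (limma adjusted p = 0.00018).

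Angpt2 was the fourth gene to rise in AKR after smoke, from 7.09, 7.32 and 7.65 with saline to 8.22 and 8.32 with LPS. The groups did not overlap, and the rise was 0.91 ± 0.25 (1.88-fold; limma adjusted p = 0.0079; n = 2 and 3). Without AKR smoke LPS 2 it was 0.86 and did not pass (limma adjusted p = 0.071). Angpt1 read 8.41, 8.60 and 8.94 with saline and 8.03 and 8.36 with LPS, a difference of -0.46 ± 0.31 (limma adjusted p = 0.28; n = 2 and 3). Tek (-0.12), Tie1 (-0.46) and Vwf (-0.46) did not pass.

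No gene of the list passed the test between smoke and air. With saline, the differences between smoke and air ran from -0.22 (Vwf) to 0.47 (Sele) in C57 and from -0.23 (Vcam1) to 0.29 (Tek) in AKR. The C57 range was -0.16 (Vwf) to 0.15 (Icam1) without the doubted pair, and Sele was at -0.039. Limma called 0% and 0.034% of all genes, with 906 and 944 genes at an unadjusted p under 0.05, none of them of the list. With LPS they ran from -0.41 (Sele) to 0.16 (Angpt2) in C57 and from -0.023 (Vwf) to 0.82 (Sele) in AKR. Without the pair the C57 range was -0.44 (Angpt1) to 0.30 (Angpt2), and Sele turned to 0.30. Here limma called 0% and 0.0068% of all genes, with 217 and 2342 genes at an unadjusted p under 0.05. Without the pair, 49 genes in place of 5 passed in AKR with saline and 228 in place of 1 in AKR with LPS, none of them of the list, and still 0 in C57. In AKR with LPS, Angpt2 was 8.22 and 8.32 after smoke and 7.55, 8.11 and 7.29 after air, a difference of 0.62 that did not pass. The groups did not overlap, and Angpt2 was the 1 gene of the list with an unadjusted p under 0.05. Without the pair 2 genes of the list were under it.

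The smoke by LPS interaction, which asks whether LPS acted more strongly after smoke, called 0% of genes in limma in either strain, with 1081 genes in C57 and 992 in AKR at an unadjusted p under 0.05. In AKR it was 0.85 for Sele and 0.76 for Angpt2, and neither passed. Leaving out the doubted pair gave 17 genes in AKR, none of the list, and 0 in C57. In C57 Sele was at -0.89 with the pair and at 0.34 without it, and neither passed. For Sele in AKR the 95% interval with the pair ran from -0.46 to 2.16. It spans a slightly weaker and a much stronger rise after smoke. Without the pair no upper end of the AKR intervals of the list lay above 1.54. There 2 genes of the list were at an unadjusted p under 0.05, in place of 1 with the pair.

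Saline instillation alone was compared with room air alone, in C57 against the mice titled 6 weeks and in AKR against those titled 3 weeks. No gene of the list passed in either strain. Leaving out the doubted pair raised the genes called from 2 to 16 in C57 and from 101 to 326 in AKR, none of the list. In C57 the differences ran from -0.16 (Sele) to 0.38 (Angpt2), limma called 0.0136% of all genes, and 907 were at an unadjusted p under 0.05, none of the list. In AKR they ran from -0.75 (Angpt2) to 0.24 (Sele), limma called 0.687% of all genes, and 2701 were at an unadjusted p under 0.05. Among the latter were 4 of the 8: Angpt2 (-0.75), Tek (-0.74), Angpt1 (-0.66) and Vcam1 (-0.47), all lower with saline. Without the pair 5 of the 8 were at an unadjusted p under 0.05.

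Against room air alone, LPS after air raised Angpt2 as well as the adhesion molecules in C57. Of the 8 genes 4 rose and none fell, and 15.1% of all genes rose and 7.75% fell. Angpt2 read 8.40, 7.79 and 8.07 in room air and 9.30, 8.76 and 8.91 with LPS. It rose by 0.90 ± 0.22 (1.86-fold; limma adjusted p = 0.0076; n = 3 and 3) with no overlap. Without C57 room air 6 weeks 2, its lowest array, the rise was 0.75 and did not pass (limma adjusted p = 0.052). Sele rose by 1.66 ± 0.42, Icam1 by 1.09 ± 0.24 and Vcam1 by 0.90 ± 0.19 (limma adjusted p = 0.0086, 0.0041 and 0.0038). Angpt1 differed by 0.014 ± 0.27 (limma adjusted p = 0.97), Tek by -0.32 and Vwf by -0.37. Tie1 was lower by a difference of -0.56 ± 0.24 that did not pass (limma adjusted p = 0.089). Tie1 did pass in 4 of the 13 alternatives, among them the fit without the doubted pair (limma adjusted p = 0.04).

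In AKR the same comparison gave a fall of Angpt1 and no rise of Angpt2. Angpt1 read 9.10 and 9.30 in room air and 7.86, 8.71 and 7.87 with LPS. It fell by 1.05 ± 0.31 (limma adjusted p = 0.024; n = 3 and 2), to 0.481 of its room air level. Angpt2 read 8.04 and 8.44 in room air and 7.55, 8.11 and 7.29 with LPS, overlapping, with a difference of -0.59 ± 0.25 (limma adjusted p = 0.11; n = 3 and 2). Both genes were already lower in AKR air saline than in this room air group. Angpt1 averaged 9.20 in room air, 8.54 with saline and 8.15 with LPS. Angpt2 averaged 8.24 in room air, 7.495 with saline and 7.65 with LPS. Neither gene passed for LPS against saline after air.

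Sele rose in AKR by 1.81 ± 0.47 (3.51-fold; limma adjusted p = 0.014; n = 3 and 2) and was the only gene of the list that did, where 5.54% of all genes rose and 10.3% fell. Icam1 (0.76, limma adjusted p = 0.055), Vcam1 (0.56, limma adjusted p = 0.077), Tie1 (-0.76, limma adjusted p = 0.055) and Tek (-0.88, limma adjusted p = 0.063) lay just outside. Without the doubted C57 pair, which enters the shared error, these 4 passed as well, making 3 higher and 3 lower. In that fit 3176 of all 14705 genes passed in either direction, in place of 2325. Without either AKR room air array no gene of the list passed, and without AKR air LPS 1 or without AKR air LPS 3 Angpt1 did not.

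**Figure D3:**
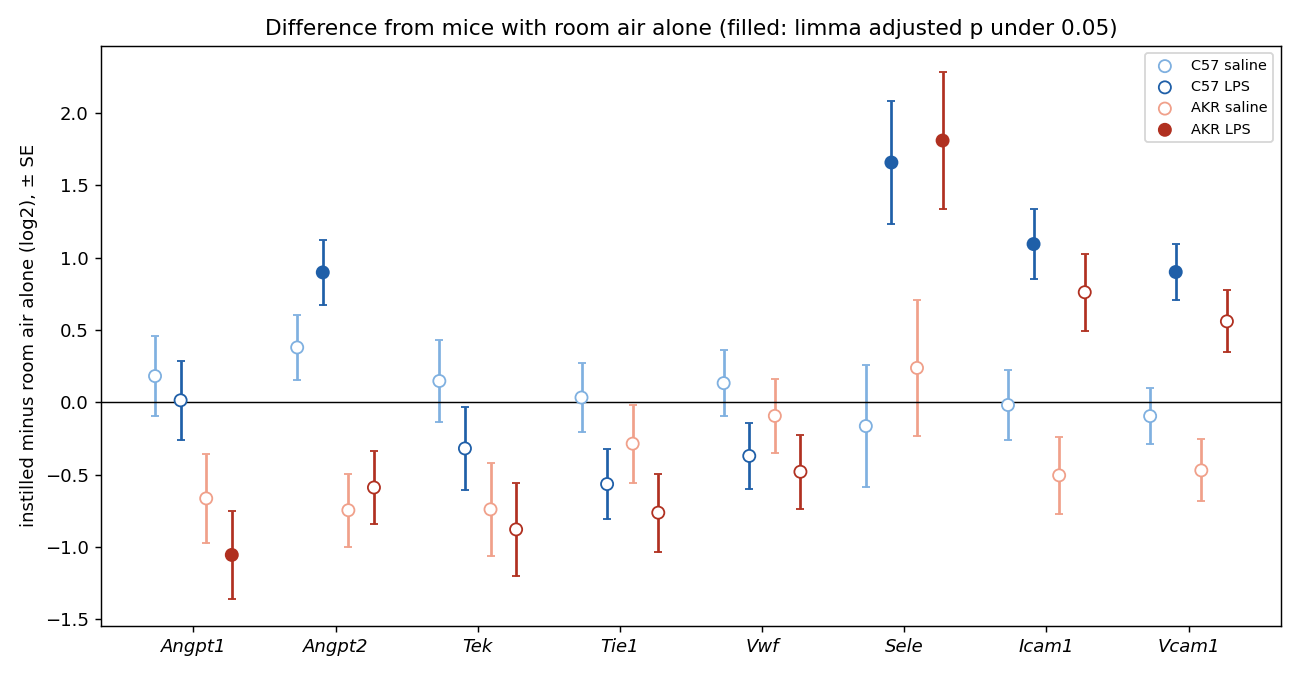
Difference from room air alone (log2, y axis) for each of 8 genes (x axis) after saline or LPS in room-air-breathing mice of both strains, with standard errors from the shared limma fit; filled points passed at an adjusted p under 0.05. Angpt2 lies at 0.38 and 0.90 in C57 and at -0.75 and -0.59 in AKR.

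Between the strains in room air alone, both titled 6 weeks and both in the larger set of arrays, no gene of the list passed in limma, which called 2.69% of all genes. The differences of AKR minus C57 ran from -0.21 (Angpt2) to 0.30 (Icam1), and none of the 8 was among the 1723 genes at an unadjusted p under 0.05. Tek, for example, read 11.74, 11.41 and 11.64 in C57 and 11.90, 11.66 and 11.89 in AKR. The strain by LPS interaction after air, LPS against saline in AKR minus the same in C57, called 1.14% of all genes and none of the list. It ran from -0.36 (Angpt2) to 0.33 (Tek), and none of the 8 was among the 1651 genes at an unadjusted p under 0.05. For Sele its 95% interval was -1.49 to 0.98, for Icam1 -0.55 to 0.85 and for Vcam1 -0.53 to 0.59, intervals wide enough to hold sizeable differences either way.

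With room air alone as the reference, an alternative added after the data were seen, the interaction called 0.741% of all genes and, of the list, Angpt2. Its LPS difference was 0.90 in C57 and -0.59 in AKR, an interaction of -1.49 ± 0.34 (limma adjusted p = 0.04). The 2 room air groups carry different exposure times in their titles, 6 weeks in C57 and 3 weeks in AKR. The call was lost under quantile normalization (-1.44, limma adjusted p = 0.072) and in 8 of the 11 fits that left out 1 array of the 4 groups. For saline in place of LPS the interaction of Angpt2 was -1.13 ± 0.34 and did not pass (limma adjusted p = 0.084), and 1.48% of all genes did. Angpt1 gave -1.07 with LPS and -0.85 with saline, neither past the threshold. Leaving out the doubted pair raised the genes called from 167 to 402 for the interaction after air, from 109 to 458 for LPS with room air alone as reference and from 218 to 591 for saline; the calls of the list stayed those given.

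Ranked over the 11 groups, Sele, Icam1 and Vcam1 each had the 4 LPS groups at the top, and Tie1 had them at the bottom. Levels are set here across both sets of arrays. Sele ran from 6.23 (SD 0.069, n = 2) in AKR room air 3 weeks to 8.86 (SD 0.26, n = 2) in AKR smoke LPS. Of its 10 pairs of neighbouring groups, 2 did not overlap. AKR room air 3 weeks lay narrowly below AKR smoke saline (6.28 against 6.34), and C57 air LPS below AKR smoke LPS. Without LPS, Sele read 6.08 to 7.07 in AKR and, the doubted pair aside, 6.09 to 6.94 in C57. Array medians over all probe sets were 6.8 to 7.1, so the rises of Sele started from a dim level. With the doubted pair left out, 4 pairs of Sele neighbours did not overlap, among them C57 room air 6 weeks (highest array 6.94) below AKR air LPS (lowest array 7.79). Icam1 ran from 10.73 in AKR smoke saline to 12.30 in AKR smoke LPS, and Vcam1 from 9.18 in AKR smoke saline to 10.53 in C57 air LPS. All neighbouring groups of Icam1 overlapped, and for Vcam1 all but 1 pair did, AKR smoke LPS below C57 air LPS. The lowest LPS group of both genes without the pair, AKR air LPS, stood clear of the group below it. That group was AKR room air 6 weeks for Icam1 (highest array 11.53 against 11.75) and AKR room air 3 weeks for Vcam1 (9.95 against 10.20), and the other neighbours overlapped.

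Angpt2 ran from 7.36 (SD 0.28, n = 3) in AKR smoke saline to 9.15 (SD 0.33, n = 3) in C57 smoke LPS, with all neighbours overlapping. Its 4 highest groups were the C57 instilled groups and its 3 lowest were AKR instilled groups. Angpt1 ran from 8.15 (SD 0.49, n = 3) in AKR air LPS to 9.20 (SD 0.14, n = 2) in AKR room air 3 weeks, and the 4 AKR instilled groups were its lowest. The only neighbours of Angpt1 that did not overlap were AKR smoke LPS and AKR air saline, and without the doubted pair all overlapped.

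Tek and Tie1 were both lowest in AKR air LPS (10.84, SD 0.55, and 9.93, SD 0.25) and highest in AKR room air 6 weeks (11.82, SD 0.14, and 10.84, SD 0.067; n = 3 each), with every pair of neighbours overlapping. Vwf ran from 10.08 in AKR smoke LPS to 11.08 in C57 air saline. Its neighbours overlapped except AKR room air 3 weeks, which lay below C57 smoke saline or, without the doubted pair, below AKR room air 6 weeks.

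Tek, Tie1 and Vwf are themselves endothelial genes, and the level of other endothelial markers moved between arrays. The mean of 14 endothelial markers, none of them of the list, is given relative to the mean of all arrays. It was -0.94 on AKR air saline 3, the array with the lowest Tek and Vwf, and -0.18 and 0.051 on the other AKR air saline arrays. On AKR air saline 3 the mean of 9 heart muscle genes stood at 1.8 and that of 8 alveolar type 1 genes at -0.81. The heart muscle mean was also high on AKR air saline 1 (1.4), AKR air LPS 1 (1.2) and AKR smoke saline 1 (1.1). On AKR air saline 2 it was -0.077. On the AKR air LPS arrays the endothelial mean ranged from -0.89 to -0.16, on the C57 air saline arrays from 0.27 to 0.31 and on the C57 air LPS arrays from -0.036 to 0.33. C57 air LPS 1 and C57 smoke LPS 1 had the lowest endothelial means of the C57 LPS arrays (-0.036 and -0.22). The same arrays had the lowest Angpt1, Tek and Tie1 of all C57 arrays and the highest Angpt2. C57 room air 6 weeks 2 also had a low endothelial mean (-0.082) without these levels. Relative to all arrays, Angpt1 was -0.063 there, Tek 0.017, Tie1 0.10 and Angpt2 -0.40.

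No endothelial marker of 14 passed for LPS against saline after air in either strain, with list medians of -0.13 in C57 and -0.19 in AKR where all genes had -0.0067 and -0.04. A single one, Egfl7, passed in AKR without the doubted pair (-0.39, limma adjusted p = 0.039). In AKR after smoke Robo4 (0.76, limma adjusted p = 0.017) and Eng (0.62, limma adjusted p = 0.028) rose and Egfl7 fell (-0.41, limma adjusted p = 0.047), 3 genes named after their values were seen. In AKR against room air alone, where Angpt1 and 10.3% of all genes fell, 7 of the 14 fell and the list median was -0.70. Of 14 mural cell and fibroblast markers, the cells that make angiopoietin-1, 5 fell in that comparison. In AKR 5 also fell for LPS against saline after air, where 7.41% of all genes fell. None passed in C57 in the latter. In AKR after smoke 7 fell and 1 rose, where 14.6% of all genes fell and 16.9% rose. The part of these shifts in the differences of Angpt1, Tek, Tie1 and Vwf was not tested.

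**Figure D4:**
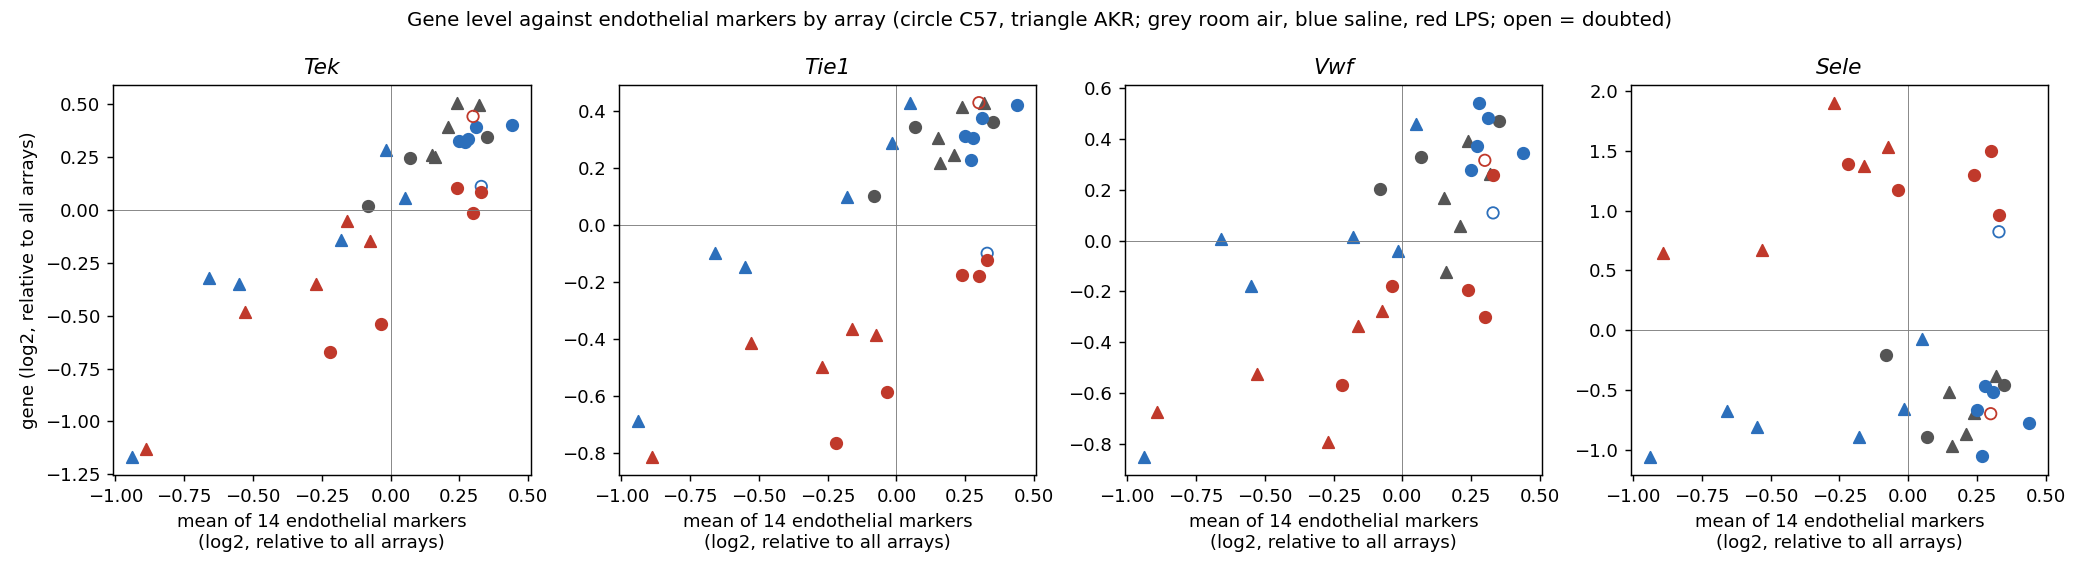
Level of Tek, Tie1, Vwf and Sele on each array (log2, relative to the mean of all 31 arrays, y axis) against the mean of 14 endothelial markers on the same array (log2, x axis); circles are C57, triangles AKR, grey room air alone, blue saline and red LPS, and open circles are the doubted pair. The lowest Tek is on AKR air saline 3, which has the lowest marker mean (-0.94). Except for C57 smoke LPS 3 of the doubted pair (Sele at -0.695), the LPS arrays hold high Sele at marker means from -0.89 to 0.33.

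Leukocyte markers rose beside the adhesion molecules. Of 10 neutrophil markers 2 rose in C57 and 10 in AKR for LPS against saline after air, where 11.5% and 9.45% of all genes rose. Against room air alone 10 rose in each strain, where 15.1% and 5.54% of all genes rose. In C57 their mean over the list spanned -0.57 to 0.17 on the air saline arrays, above the -1.1 to -0.74 of room air alone. With LPS it spanned 1.5 to 1.7, clear of both. The doubted pair, at 1.3 on C57 smoke saline 3 and -1.5 on C57 smoke LPS 3, widens the error of these tests. Of 8 tested monocyte and macrophage markers 5 rose in C57 and 6 in AKR. The share of Icam1 made by these cells was not tested.

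The counter-receptors on leukocytes were measured as a list of 15 genes, of which 14 were tested. In C57 after air 4 rose and in AKR 9, with medians of 0.031 and 0.80, and in AKR after smoke 8 rose. None fell in the 3 comparisons. The shares of all genes that rose were 11.5%, 9.45% and 16.9%. Itgam, the alpha chain of MAC-1, which binds ICAM1, rose by 2.04 ± 0.53 in C57 and 2.68 ± 0.53 in AKR (limma adjusted p = 0.013 and 0.0013). Itgb2, the beta chain that it shares with LFA-1, rose by 0.77 ± 0.25 and 1.53 ± 0.25. Itgal, the alpha chain of LFA-1, rose in AKR by 1.74 ± 0.27 and read 0.69 ± 0.27 in C57 (limma adjusted p = 0.081). Selplg, the P-selectin ligand that also binds E-selectin, rose in AKR by 1.74 ± 0.26 and read 0.69 ± 0.26 in C57 (limma adjusted p = 0.069). Without the doubted pair both passed in C57, where 6 of the 14 and 15.2% of all genes then rose.

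NF-kB pathway genes rose nearly throughout. Of 14 tested, 14 rose in C57 after air (median 1.5), 13 in AKR after air (1.7) and 14 in AKR after smoke (1.9), and none fell. Among all genes 11.5%, 9.45% and 16.9% rose in these comparisons. Tnf, a cytokine that induces E-selectin in endothelium, rose by 3.45 ± 0.74 in C57 and 4.05 ± 0.74 in AKR. Il1b, which does the same, rose by 3.09 ± 0.82 and 4.57 ± 0.82. The feedback inhibitor Tnfaip3 rose by 2.41 ± 0.52 and 3.27 ± 0.52, and the TNF receptor Tnfrsf1b by 1.43 ± 0.38 and 2.54 ± 0.38 (limma adjusted p from 0.00013 to 0.015 over these 4 genes).

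Around the Tie receptors, 16 genes of the signalling list were tested. In C57 after air 3 rose and 2 fell, in AKR 4 rose and 2 fell, and in AKR after smoke 4 rose and none fell. Of all genes 11.5% rose and 4.3% fell in C57 after air, and 9.45% rose and 7.41% fell in AKR. After smoke in AKR the shares were 16.9% and 14.6%. Genes of the list that rose included Mmp14, a membrane protease that sheds TEK (1.19 ± 0.24 in C57 and 1.01 ± 0.24 in AKR). Adam17, a sheddase of many surface proteins, rose too (0.73 ± 0.16 and 0.72 ± 0.16). Dok2, an adaptor that docks on TEK and is also made by leukocytes, rose by 0.89 ± 0.18 and 0.73 ± 0.18. Kdr, the VEGF receptor of endothelium, fell by 0.64 in C57 (SE 0.21, limma adjusted p = 0.038) and read -0.53 ± 0.21 in AKR (limma adjusted p = 0.079). Other genes that passed are named after their values were seen. Angpt4, a further angiopoietin ligand of TEK, fell by 0.39 in C57 (SE 0.11, limma adjusted p = 0.022). In AKR after air the transcription factor Foxc2 (-0.45 ± 0.13) and the endothelial nitric oxide synthase Nos3 (-0.43 ± 0.13) fell, and Tnip2, which binds TEK and restrains NF-kB, rose by 0.34 ± 0.12 (limma adjusted p = 0.017, 0.022 and 0.048). In AKR after smoke Dok2, Adam17, Mmp14 and the kinase Akt1 (0.23 ± 0.084) made up the 4 that rose. With the doubted pair left out, 4 rose in C57 and 3 fell in AKR after air. The same fit had 15.2% of all genes higher in C57 and 10.8% lower in AKR. The list medians were 0.051 in C57 and -0.067 in AKR.

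Of 13 other endothelial adhesion genes tested, 1 rose in each strain after air and none fell, where 11.5% of all genes rose in C57 and 9.45% in AKR. It was Ackr1, the chemokine-binding receptor of venules, at 0.81 ± 0.23 in C57 and 0.79 ± 0.23 in AKR (limma adjusted p = 0.019 and 0.018). Icam2, a constitutive relative of ICAM1, read -0.37 ± 0.23 and -0.23 ± 0.23. Glycam1 read -0.18 and 0.87 with an error of 0.69, and Cd99l2 -0.15 and -0.35, none past the threshold. In AKR after smoke 3 rose, Ackr1 (0.84), Cd34 (0.61) and Mcam (0.53), and Alcam fell (-0.37, limma adjusted p = 0.006). The last 3 are named after their values were seen. Shares of all genes after smoke in AKR were 16.9% higher and 14.6% lower. In AKR after air 2 fell without the doubted pair, as did 10.8% of all genes. Pecam1 and Esam belong both to this list and to the endothelial markers.

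Among 9 tested genes of Weibel-Palade bodies and the partners of von Willebrand factor, 2 rose in each strain after air and none fell. Of all genes 11.5% rose and 4.3% fell in C57, and 9.45% rose and 7.41% fell in AKR. Mlph, which encodes the trafficking adaptor melanophilin, rose in both (0.93 ± 0.25 and 0.78 ± 0.25). Cd63, a protein of these granules and of lysosomes, rose in C57 by 0.80 ± 0.23 and read 0.65 ± 0.23 in AKR (limma adjusted p = 0.055). Rab27a, a GTPase of granule transport, rose in AKR by 0.40 ± 0.13. In AKR after smoke 3 rose, Plat, the plasminogen activator of endothelium (1.24 ± 0.36), Mlph (0.80 ± 0.28) and Unc13d (0.50 ± 0.14), and Rab3d fell (-0.51 ± 0.12, limma adjusted p = 0.0031). There 16.9% of all genes rose and 14.6% fell. After air Plat passed in neither strain in the fit of all arrays, with 0.80 as its largest absolute difference. Rab27a, Unc13d and Rab3d are named after their values were seen. After air 4 rose in C57 without the doubted pair, and 3 rose and 1 fell in AKR. That fit called 15.2% of all genes higher in C57, and 11.8% higher and 10.8% lower in AKR. Thbd, thrombomodulin, read -0.60 ± 0.31 and -0.73 ± 0.31 and did not pass. Of 6 tested platelet markers 4 fell in C57 after air, where 4.3% of all genes fell, and none passed in AKR. Their mean on the C57 air saline arrays spanned 0.44 to 1 against -0.10 to 0.31 in C57 room air alone.

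The 3 tested genes most like each member were chosen by Pearson r over the 18 arrays of the larger set, with r over the 13 others beside it. Arrays of 1 treatment share that treatment, which alone can give a high r. For Sele they were Nfkb2, a subunit of NF-kB (0.98 and 0.92), Bcl2a1c (0.98 and 0.95) and Gpr84, a receptor of activated myeloid cells (0.98 and 0.97). For Icam1 they were Tgm2 (0.98 and 0.98), Upp1 (0.98 and 0.98) and Plod3 (0.98 and 0.95), and for Vcam1 the transcription factor Stat3 (0.98 and 0.86), the cytokine Il1a (0.97 and 0.93) and the chemokine Cxcl16 (0.97 and 0.95). Tie1 went with Adcy9 (0.98 and 0.90), Plekhh2 (0.98 and 0.84) and the endothelial receptor Kdr (0.98 and 0.93). Tek went with Raver2 (0.97 and 0.91), Reps2 (0.96 and 0.84) and Mtss2 (0.96 and 0.64).

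Over the 13 other arrays the lowest r of all was that of Angpt2 with Vta1. Angpt1 went with Dstyk (0.95 and 0.86), Zfp563 (0.94 and 0.77) and Aldh3a2 (0.94 and 0.82). Angpt2 went with Vta1 (0.94 and 0.49), Rab5c (0.94 and 0.76) and Ptbp3 (0.93 and 0.76), and Vwf with Zfp652 (0.94 and 0.69), Klc1 (0.93 and 0.67) and Sgip1 (0.93 and 0.74).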

How the data were processed

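The authors deposited 1 column of log2 values per array for 35556 probe sets, obtained with RMA (robust multi-array averaging) per the submitters' processing notes; its version and settings are not given in the sources used here. Biotin-labelled cRNA of lung RNA was handled by the manufacturer's protocol, per the labels. The deposited log2 values were used as given. Of the probe sets, 21789 carry 1 gene symbol in the platform annotation, 1621 carry several and 12146 are unnamed here. Entrez identifiers matched for 99.6% and gave current symbols.

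A gene was represented by its highest-mean probe set. Genes above the 40th percentile of the probe sets on at least 3 arrays (14705) were tested. A linear model with 1 mean for each of 11 groups was fitted with limma over the 31 arrays (20 residual and 3.36 prior degrees of freedom), and empirical Bayes moderation then gave each difference and its standard error, written after ±. Tests are two-sided with Benjamini-Hochberg adjustment over all 14705 genes, and a gene passed at 0.05. Interactions are differences of differences in that fit. The fit was tested on simulated data. The number of arrays limits the precision.

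The 9 genes, the gene lists and the tests were chosen with earlier results of these data known. The 8 measured genes are named for LPS against saline and against room air alone, and elsewhere at least at the ends of their range. Of each pathway list, up to 4 genes with the largest absolute difference for LPS against saline after air in either strain are named, together with the 3 genes most like each member. Replicate numbers did not pair the arrays, except that for saline against room air alone in C57 all 3 same-numbered pairs correlated (0.41, 0.23 and 0.3); there the block changed no call of the 8 genes. The alternatives are given in the closing section. R 4.3.3, limma 3.58.1 and data.table (1.17.8) were used, with Python 3.11.15, pandas 2.3.3 and matplotlib 3.10.9.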

Additional observations from a re-analysis of the deposited data

Results flagged for a closer look

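The difference of Angpt2 between LPS and room air alone was unlike in the 2 strains. The interaction was -1.49 (limma adjusted p = 0.04), with a difference of 0.90 in C57 and -0.59 in AKR. The call held in 6 of the 18 alternatives, and the room air groups are titled 6 weeks in C57 and 3 weeks in AKR. It was singled out because a test of the difference itself passed. With plain saline in place of LPS, against the same room air groups, the Angpt2 interaction was -1.13 and did not pass. For LPS against saline after air it was -0.36 and did not pass either. How far the flagged value reflects LPS rather than instillation or the reference groups was not tested. No group holds enough arrays to single out an array by its distance from the others.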

How the results depend on the processing

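Over 984 refits of the genes' differences, 905 kept direction and side of the threshold, 23 lost their call, 32 gained one and 24 changed sign; the cause was not tested. Counts of genes past the threshold moved as follows. In C57 after air, LPS against saline gave a count of 5 with only the arrays compared, 4 without the doubted pair and under quantile normalization, where Tie1 was added, and 3 in the fit as reported. After smoke in C57 it was 5 without the doubted pair and 0 to 3 with single arrays left out. For LPS against room air alone in AKR it was 6 without the doubted pair and 0 to 4 with single arrays left out. The strain by LPS interaction with room air alone as reference gave 0 under quantile normalization, median centring, the replicate block and the arrays compared alone, and 0 to 2 with single arrays left out; Angpt2 was -1.48 (limma adjusted p = 0.067) with the replicate block. The strain by saline interaction gave 2 with only the arrays compared and 0 to 1 with single arrays left out. Signs changed as follows. Without the doubted pair Sele in C57 was -0.039 for smoke against air with saline, 0.30 with LPS and 0.34 in the smoke by LPS interaction; with single arrays left out the first ranged from -0.039 to 0.76 and the second from -0.80 to 0.30. With LPS against room air alone in C57, Angpt1 was -0.057 under quantile normalization and -0.060 under centring, and ranged from -0.25 to 0.37 with single arrays left out. In the strain by LPS interaction Vwf was 0.037 under quantile normalization and 0.0062 under centring.

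With single arrays left out, the sign turned in these ranges. For LPS against saline after air, Angpt1 in C57 ranged from -0.43 to 0.19, and in AKR Tek ranged from -0.52 to 0.15 and Angpt2 from -0.074 to 0.34. After smoke in AKR Tek ranged from -0.23 to 0.087. For saline against room air alone in AKR, Sele ranged from -0.063 to 0.43, Tie1 from -0.53 to 0.031 and Vwf from -0.39 to 0.27. In the same strain by LPS interaction Vwf ranged from -0.20 to 0.039 and Sele from -0.086 to 0.34. Same-numbered arrays did not deviate together in general (correlations from -0.77 to 0.55; the exception was saline against room air alone in C57, at 0.41, 0.23 and 0.3), and a replicate block added the call of Icam1 for LPS against room air alone in AKR (0.80, limma adjusted p = 0.048), beside the one lost above, and changed no other call. Elsewhere the samples share only a number. With 2 or 3 arrays a group, small differences were not detectable.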
